A study of Mus musculus with 12 samples.

Results

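The 9 complement genes described here are C1qa, C1qb and C1qc, which encode the chains of C1q; C3 and C4b, which encode central components; Cfb and Cfp, which encode factor B and properdin of the alternative pathway; and C3ar1 and C5ar1, which encode the receptors for the fragments C3a and C5a. They were chosen by name, through the RefSeq transcript that each array probe is assigned to, and 13 of the 56605 distinct probes on the array matched them. All 9 passed the filter on dim probes and are among the 13283 genes tested. Macrophages from the abdominal cavity of C57/BL6 mice were kept in DMEM with 10% FBS, and their RNA was hybridised to 12 Agilent arrays with 1 dye. The groups were wild-type (WT) cells given PBS, WT cells given LPS, GPR15 knockout (GPR15KO, here KO) cells given PBS and KO cells given LPS, each with 3 arrays. LPS, the outer-membrane glycolipid of Gram-negative bacteria that macrophages sense through TLR4, was given at 100 ng/ml, and both treatments lasted 4 h. The title names the expression profile of macrophages without GPR15, a G protein-coupled receptor, as the subject. The labels give no age or sex and do not say how the knockout allele was made, how macrophages were separated from other cells, or whether replicates came from separate mice, so the spread behind each p-value is that between these arrays, which could be technical.

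Complement is a cascade of plasma proteins that coats microbes and dying cells and calls in leukocytes. C1q starts the classical pathway when it binds antibody or cell debris, C4 and C2 then form an enzyme that cleaves C3, and factor B does the same in the alternative pathway, where properdin stabilises the enzyme. Most components come from the liver, but macrophages are a main source of C1q and also make properdin, C3, C4 and factor B. The receptors C3aR and C5aR1 let macrophages sense the small fragments released when C3 and C5 are cleaved.

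The level of a gene is given as the log2 of its signal relative to the 75th percentile of the non-control spots on the same array, so a level of 0 equals that percentile and a level below 0 lies under it. Between 48.8% and 57.1% of these spots were well above background, and 0 were saturated. Of 2 slides, scanned separately, the first (slide 1) carried all WT arrays with replicates 1 and 2 of KO PBS. The other (slide 2) carried the remaining KO PBS array, replicate 3, and the KO LPS arrays. Gpr15 itself was well above background on 0 of 12 arrays, so the knockout label could not be checked with it. Xist was well above background on 6 of 6 WT and 0 of 6 KO arrays, and the Y-linked gene Ddx3y on 0 and 6, so sex-linked genes parted the genotypes as well. The part of sex and that of genotype thus cannot be told apart in any difference between KO and WT cells below, the interaction included.

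All 11 macrophage markers listed were well above background on 12 arrays. Markers of other cells that share the cavity were also present. All 8 B-cell markers and all 7 mast-cell markers were well above background on 12 arrays, as were 6 of 7 T-cell, 4 of 8 neutrophil and 3 of 6 dendritic-cell markers on the array. Of cells that could supply C3, C4b or Cfb in the peritoneum, mesothelial cells had 5 of 9 markers well above background on 0 arrays (Upk3b, Upk1b, Wt1, Krt19 and Cdh1), and fibroblasts had 4 of 7 (Col1a1, Col3a1, Lum and Pdgfra). On 12 arrays, 0 of the mesothelial and 2 of the fibroblast markers were well above background, and 1 fibroblast marker rose with LPS in each genotype. Summed over each list, in multiples of the 75th percentile, macrophage markers lay between 664 and 729 in WT PBS, 686 and 759 in WT LPS, 681 and 763 in KO PBS, and 691 and 716 in KO LPS, so these ranges overlapped. Single markers did change: with LPS 3 of the 11 were called higher and 6 lower in WT cells, and 2 and 6 in KO cells. Of all genes tested 33.7% were higher and 31.0% lower in WT cells, and 35.1% and 32.0% in KO cells. B-cell markers lay between 146 and 185 in WT PBS, 71.2 and 84.9 in WT LPS, 125 and 131 in KO PBS, and 57.1 and 57.7 in KO LPS. Mast-cell markers lay between 111 and 149, 241 and 263, 99.0 and 116, and 188 and 205 in the same order. Dendritic-cell markers lay between 27.2 and 33.5, 81.9 and 89.8, 23.2 and 25.5, and 74.1 and 81.6. The sums of the LPS groups thus stood apart from the PBS sums of the same genotype for these 3 lists. They were lower for the B-cell list and higher for the other lists. Between genotypes, the KO sums of the B-cell and dendritic-cell lists stood below the WT sums both in PBS and after LPS. Those of the mast-cell list did so after LPS only. After LPS 5 of the 8 B-cell, 3 of the 7 mast-cell and 2 of the 4 dendritic-cell markers tested were called lower in KO cells. Of all genes 19.5% were lower in that comparison. Of the 7 mast-cell markers, 3 were called higher with LPS in each genotype, and 1 was called lower in WT cells. All 4 dendritic-cell markers tested were called higher in each genotype. T-cell markers lay between 9.52 and 11.6, 8.65 and 9.69, 9.44 and 11.6, and 11.1 and 11.9 in that order, so the sums of KO LPS stood above those of WT LPS. Of the 6 T-cell markers tested, 2 were called higher and 2 lower in KO cells after LPS. Of all genes 20.0% were higher and 19.5% lower there. Neutrophil markers lay between 3.26 and 4.13, 4.17 and 10.3, 6.09 and 9.20, and 7.99 and 10.1. For these sums KO PBS stood above WT PBS, while KO LPS and WT LPS overlapped. Of the 6 neutrophil markers tested, 2 were called higher in KO cells in PBS and 2 after LPS. Of all genes 8.06% and 20.0% were higher in KO cells in these comparisons. Mesothelial markers summed to at most 0.278 and fibroblast markers to at most 0.683 on any array. The part of these cells in the results below was not tested, and in such bulk RNA fewer cells of a type and less RNA per cell cannot be told apart.

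**Figure D1:**
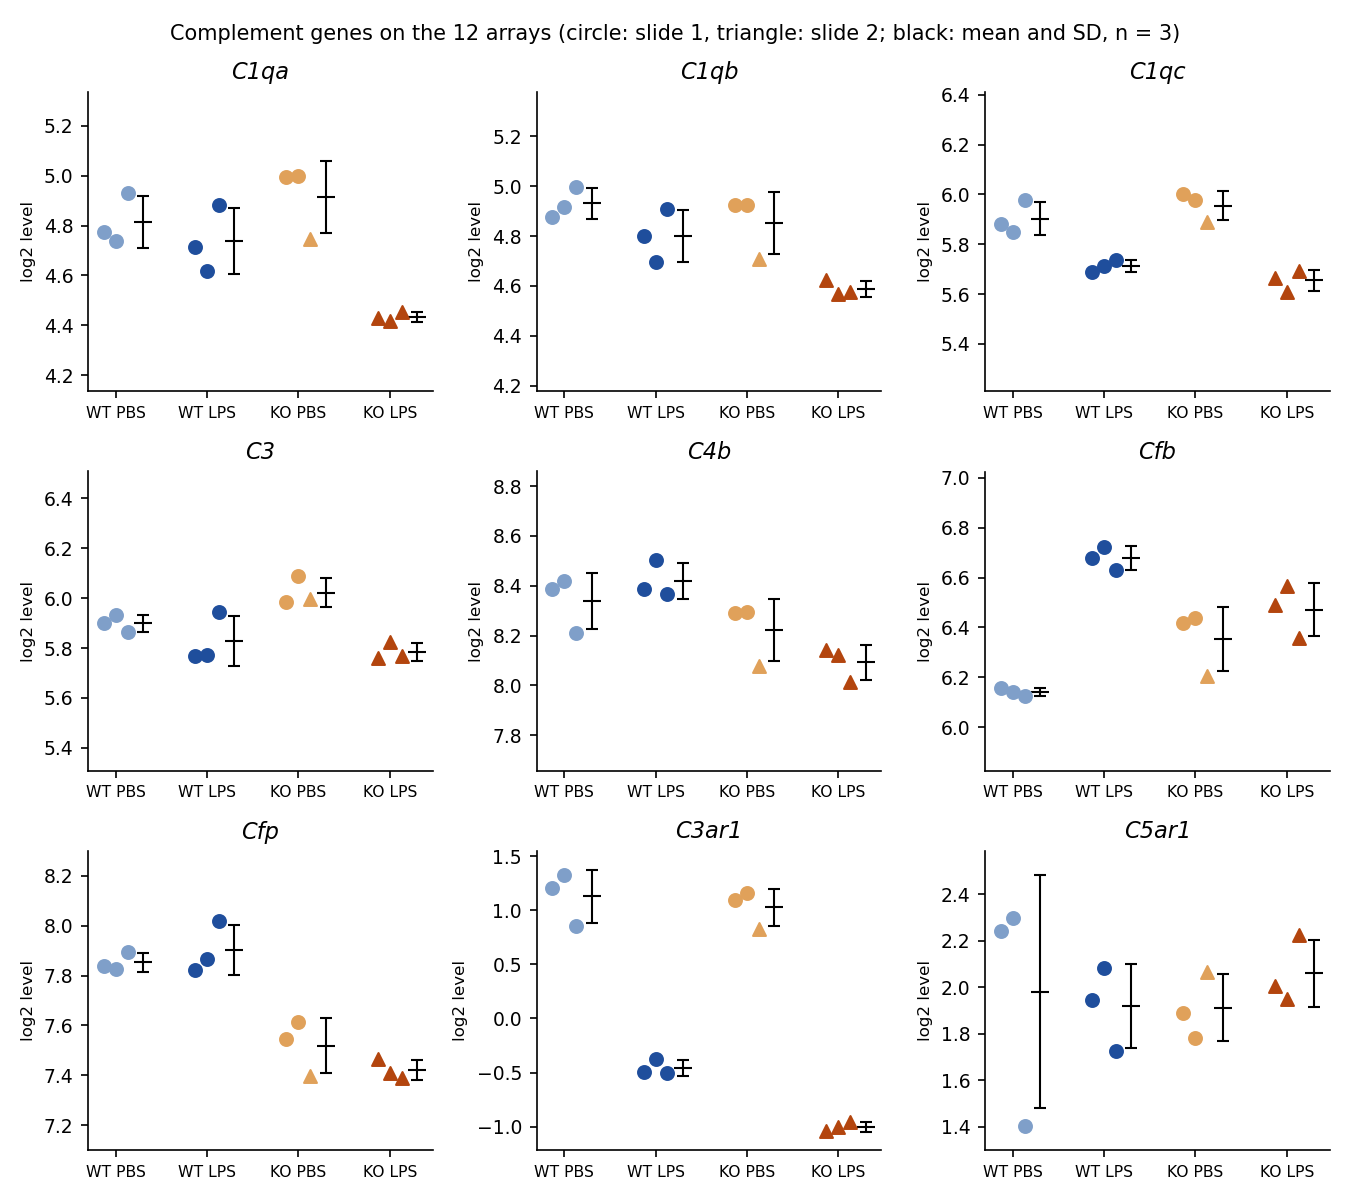
Level of each complement gene (y axis, log2 signal relative to the array's 75th percentile) on each of the 12 arrays, by group, with circles for slide 1 and triangles for slide 2; black bars give the mean and SD of 3 arrays. C3ar1 drops by more than 1 unit in both genotypes with LPS, Cfb is higher on the 3 WT LPS arrays than on the 3 WT PBS arrays, and Cfp is lower on every KO array than on every WT array.

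The C1q genes lie side by side on mouse chromosome 4 in the order C1qb, C1qc and C1qa, and their products assemble into one protein. The windows of 250 bases before the RefSeq start of C1qb and C1qc are shown because these neighbours were both lower with LPS in KO cells. Both are on the minus strand of GRCm38.p6 and are printed 5′ to 3′ along the gene, at chr4:136886201-136886450 and chr4:136892915-136893164. Capitals mark every match, on either strand, to one of the 7 patterns searched. The NF-kB pattern is GGG and CC with 5 bases between them, and the ISRE pattern is 2 copies of GAAA with 2 bases between them. TTCNNNGAA stands for GAS, TTGCNNAA for C/EBP, GAGGAAGT for PU.1, TGANTCA for AP-1 and TATAAA for the TATA box.
C1qb: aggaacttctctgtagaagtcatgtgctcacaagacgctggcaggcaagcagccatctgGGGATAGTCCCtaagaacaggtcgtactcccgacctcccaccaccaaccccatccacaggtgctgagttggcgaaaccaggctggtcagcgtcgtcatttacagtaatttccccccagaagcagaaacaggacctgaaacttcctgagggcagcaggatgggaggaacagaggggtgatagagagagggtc
C1qc: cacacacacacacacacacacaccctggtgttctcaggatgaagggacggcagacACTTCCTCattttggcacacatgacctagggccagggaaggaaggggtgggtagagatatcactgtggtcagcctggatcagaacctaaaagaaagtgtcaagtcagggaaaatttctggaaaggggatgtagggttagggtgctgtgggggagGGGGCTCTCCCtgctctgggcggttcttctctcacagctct
The NF-kB pattern matched in both, beginning 191 bases before the start of C1qb and 41 bases before that of C1qc, where overlapping matches merge into 1 stretch. It also occurs in 45.8% of all 32851 windows of this length. The PU.1 pattern, found in 2.44% of all windows, matched C1qc 195 bases before its start and did not match C1qb. A match is only a description of these letters.

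All 3 C1q genes fell with LPS in KO cells, and C1qc fell in WT cells too. C1qc, which encodes the C chain, read 5.88, 5.85 and 5.98 in WT PBS and 5.69, 5.71 and 5.74 in WT LPS. In KO cells it read 6.0, 5.98 and 5.89 in PBS and 5.67, 5.61 and 5.69 in LPS. In neither genotype did the PBS and LPS arrays overlap. The change was -0.19 ± 0.05 in WT cells (limma log2 change ± SE, n = 3 per group, adjusted p = 0.00452), and -0.30 ± 0.05 in KO cells (adjusted p = 0.000179). Within slide 2, where KO PBS replicate 3 is the only PBS array, the KO change was -0.23.

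C1qa, the A chain gene, read 4.78, 4.74 and 4.93 in WT PBS and 4.71, 4.62 and 4.88 in WT LPS. These groups overlapped, and the change of -0.08 ± 0.08 did not pass the test (adjusted p = 0.435, interval -0.26 to 0.10 at 95% confidence). The KO arrays read 5.0, 5.0 and 4.75 in PBS and 4.43, 4.42 and 4.45 in LPS. Here C1qa fell by 0.48 ± 0.08, or 1.40-fold, without overlap (adjusted p = 0.000283). KO PBS replicate 3, on the slide of the LPS arrays, was the lowest PBS array, and the change with the slide as a term in the fit, which rests on that array, was -0.31 (adjusted p = 0.0178).

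C1qb, the B chain gene, read 4.88, 4.92 and 5.0 in WT PBS and 4.80, 4.70 and 4.91 in WT LPS. KO arrays read 4.92, 4.93 and 4.71 in PBS and 4.62, 4.57 and 4.57 in LPS. The groups overlapped in WT but not in KO cells. The LPS change was -0.13 ± 0.07 in WT cells (adjusted p = 0.119, interval -0.28 to 0.02), or -0.18 without WT LPS replicate 3, which passed (adjusted p = 0.0422). C1qb fell by 0.26 ± 0.07 in KO cells (adjusted p = 0.00515). With the slide as a term the KO change was -0.12 and did not pass (adjusted p = 0.212). With quantile normalization, which forces the same signal distribution on all arrays, all 3 chains passed in WT cells, at -0.29 for C1qa, -0.36 for C1qb and -0.47 for C1qc.

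C3, the component on which all pathways converge, fell with LPS in KO cells. Its brighter probe read 5.90, 5.93 and 5.87 in WT PBS and 5.77, 5.77 and 5.95 in WT LPS, where replicate 3 lay above all WT PBS arrays and the other replicates below them. The WT change of -0.07 ± 0.05 did not pass (adjusted p = 0.285), whereas without WT LPS replicate 3 it was -0.13 (adjusted p = 0.0399), and the gene's other probe changed by -0.14 (adjusted p = 0.0444). With quantile normalization the WT change was -0.36 and passed (adjusted p = 0.0003). In KO cells C3 read 5.98, 6.09 and 6.0 in PBS and 5.76, 5.82 and 5.77 in LPS, without overlap. It fell by 0.24 ± 0.05 there (adjusted p = 0.0022), with a change of -0.21 when the slide was a term (adjusted p = 0.0344).

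C4b encodes C4, the component that joins C2 in the classical enzyme. Its brighter probe read 8.39, 8.42 and 8.21 in WT PBS, 8.39, 8.50 and 8.37 in WT LPS, 8.29, 8.29 and 8.08 in KO PBS, and 8.14, 8.12 and 8.01 in KO LPS. PBS and LPS arrays overlapped in both genotypes. The LPS change was 0.08 ± 0.08 in WT (adjusted p = 0.376) and -0.13 ± 0.08 in KO cells (adjusted p = 0.148), and neither passed. The KO value passed at -0.21 with quantile normalization (adjusted p = 0.00528) and at -0.20 without KO PBS replicate 3 (adjusted p = 0.0254). C4a, a close copy of C4b, had its own probe, whose LPS changes of -0.01 ± 0.19 and -0.26 ± 0.19 did not pass either. Whether the probes tell these copies apart was not tested.

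Among the 9 genes Cfb alone was raised by LPS in WT cells. Cfb, which encodes the protease factor B, read 6.16, 6.14 and 6.13 in WT PBS and 6.68, 6.72 and 6.63 in WT LPS, with a wide gap between the groups. The rise was 0.54 ± 0.07, or 1.45-fold (adjusted p = 2.31e-05), and the second Cfb probe rose by 0.51. In KO cells Cfb read 6.42, 6.44 and 6.21 in PBS and 6.49, 6.56 and 6.36 in LPS, which overlapped. The KO change of 0.12 ± 0.07 did not pass (adjusted p = 0.15, interval -0.03 to 0.27). KO PBS replicate 3 was again low, and with the slide as a term the change was 0.26, which passed (adjusted p = 0.0108), while with quantile normalization it was -0.07 and did not pass.

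C2 lies next to Cfb on chromosome 17 and encodes the matching protease of the classical pathway. It read 0.83, 0.94 and 0.81 in WT PBS and 1.31, 1.39 and 1.17 in WT LPS. The KO arrays read -0.28, -0.20 and -0.30 in PBS and -0.25, -0.09 and -0.43 in LPS. C2 thus rose by 0.43 ± 0.09 with LPS in WT cells (adjusted p = 0.000841), and its change was 0.00 ± 0.09 in KO cells (adjusted p = 0.985).

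Cfp, the properdin gene on the X chromosome, did not pass the test for LPS in either genotype but was lower in KO cells. It read 7.84, 7.83 and 7.89 in WT PBS and 7.82, 7.87 and 8.02 in WT LPS, against 7.55, 7.61 and 7.40 in KO PBS and 7.47, 7.41 and 7.39 in KO LPS. All 6 KO arrays lay below all 6 WT arrays. The LPS change was 0.05 ± 0.07 in WT (adjusted p = 0.531) and -0.10 ± 0.07 in KO cells (adjusted p = 0.203). With quantile normalization the KO value was -0.25 (adjusted p = 0.00737), and without KO PBS replicate 3 it was -0.16 (adjusted p = 0.0343).

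C3ar1, the C3a receptor gene, fell most among the 9 genes. It read 1.21, 1.33 and 0.85 in WT PBS and -0.49, -0.37 and -0.50 in WT LPS, so all LPS arrays lay far below all PBS arrays. The same was true of KO cells, at 1.09, 1.15 and 0.83 in PBS and -1.04, -1.01 and -0.96 in LPS. The fall was 1.59 ± 0.11 on the log2 scale in WT cells, or 3.00-fold (adjusted p = 1.75e-07). In KO cells it fell by 2.03 ± 0.11, or 4.08-fold (adjusted p = 3.02e-08). Within slide 2, where KO PBS replicate 3 is the only PBS array, the KO change was -1.83. Only 2.77% of all genes tested had a change as low in WT cells and 1.29% in KO cells.

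The 250 bases before the RefSeq start of C3ar1, the gene with the largest change, lie at chr6:122856158-122856407 on the minus strand of GRCm38.p6 and are printed 5′ to 3′, with matches to the same 7 patterns in capitals.
C3ar1: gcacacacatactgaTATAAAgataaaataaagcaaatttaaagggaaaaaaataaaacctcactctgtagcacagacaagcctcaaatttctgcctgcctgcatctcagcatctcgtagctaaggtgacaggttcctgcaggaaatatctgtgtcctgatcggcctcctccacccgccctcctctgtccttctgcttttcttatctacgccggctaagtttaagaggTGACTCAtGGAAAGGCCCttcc
The AP-1 pattern matched 22 bases before the start, as it does somewhere in 6.75% of all windows. An NF-kB match began 14 bases before the start and TATAAA lay 235 bases before it, in 45.8% and 12.4% of all windows. Of the other members in the table of windows, C3 held 5 NF-kB matches, some of them overlapping, and 1 C/EBP match, Cfp held 1 NF-kB match, and C5ar1 held none of the 7 patterns.

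C5ar1 encodes the receptor for C5a, a strong leukocyte attractant, and was the least precisely measured member. It read 2.24, 2.30 and 1.40 in WT PBS and 1.94, 2.08 and 1.73 in WT LPS, where PBS replicate 3 stood far below the other PBS arrays and the groups overlapped. The KO arrays read 1.89, 1.78 and 2.07 in PBS and 2.00, 1.95 and 2.22 in LPS, which also overlapped. Its LPS change was -0.06 ± 0.20 in WT (adjusted p = 0.799, interval -0.49 to 0.37) and 0.15 ± 0.20 in KO cells (adjusted p = 0.524, interval -0.28 to 0.58). Without WT PBS replicate 3 the WT change was -0.35 and passed (adjusted p = 0.0187). C5ar2, the neighbouring gene for the second C5a receptor, rose with LPS by 0.44 ± 0.14 in WT (adjusted p = 0.017) and 0.52 ± 0.14 in KO cells (adjusted p = 0.00689). The KO rise was 0.43 with the slide as a term and did not pass (adjusted p = 0.107), and the WT call was lost without WT PBS replicate 3, WT LPS replicate 1 or WT LPS replicate 2.

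**Figure D2:**
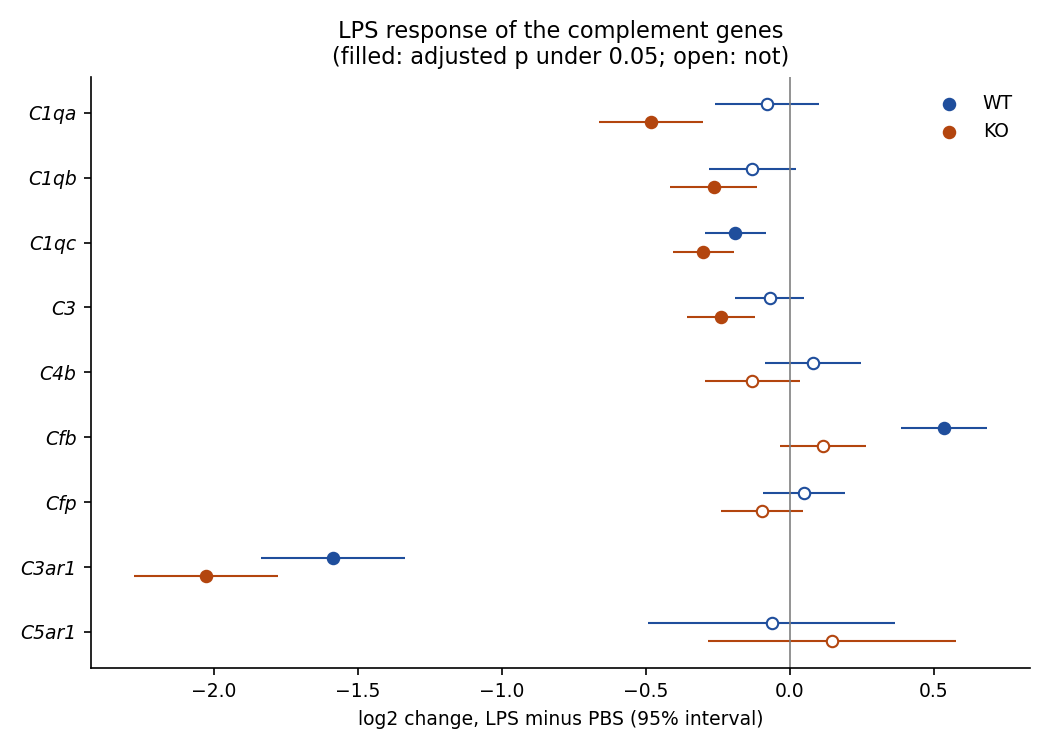
Log2 change with LPS (x axis, LPS minus PBS) of each complement gene in WT (blue) and KO (orange) cells, with its 95% interval; filled points passed an adjusted p of 0.05 and open points did not. C3ar1 stands apart at -1.59 and -2.03, Cfb lies to the right at 0.54 in WT cells, and the remaining values lie between -0.48 and 0.15.

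Counted together, 3 of the 9 genes passed for LPS in WT cells, 1 higher (Cfb) and 2 lower (C1qc and C3ar1), where 64.7% of all genes tested passed, 33.7% higher and 31.0% lower. PBS and LPS arrays did not overlap for those 3, as for 69.4% of all genes. The median change of all 9 was -0.07, against 0.03 for all genes tested. In KO cells 5 of 9 passed, all lower (C1qa, C1qb, C1qc, C3 and C3ar1), where 67.0% of all genes passed, 35.1% higher and 32.0% lower. The arrays of those 5 did not overlap, as for 72.1% of all genes. The median of all 9 was -0.24, against 0.04 for all genes tested. With the slide as a term there were again 5 calls in KO cells, of which 1 was higher (Cfb) and 4 were lower (C1qa, C1qc, C3 and C3ar1). Quantile normalization gave 6 calls in WT cells, 1 higher and 5 lower. Without WT LPS replicate 3 there were 5, which added C1qb and C3.

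Without LPS, KO and WT cells differed in Cfp. It was 1.26-fold lower in KO cells, a log2 difference of -0.33 ± 0.07 (KO minus WT, adjusted p = 0.00653). Within slide 1 alone the difference was -0.27 (adjusted p = 0.0453), and its second probe differed by -0.33 (adjusted p = 0.0356). This call held under each alternative run for this comparison. The sex-linked genes given above also part the genotypes, and Cfp is X-linked. In this result, as in the other genotype differences, the part of sex and that of genotype cannot be told apart. Cfb was higher in KO cells by 0.21 ± 0.07 without passing (adjusted p = 0.0592), although the 3 KO arrays lay above the 3 WT arrays. Within slide 1 the difference was 0.29 and passed (adjusted p = 0.0107).

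The other 7 genes did not pass in PBS, with differences from -0.12 for C4b to 0.12 for C3. The interval for C3 was 0.01 to 0.24 and that for C1qa -0.08 to 0.28. For C5ar1 it reached from -0.50 to 0.36, and without WT PBS replicate 3 its difference of -0.36 passed (adjusted p = 0.0491). In all, 1 of 9 genes passed, where 14.1% of all genes did, 8.06% higher and 6.05% lower in KO cells. Of all genes called here 57.1% were higher in KO cells, but 35.9% with array median scaling. The genotypes did not overlap for Cfp, Cfb and C3, which is 3 of 9, against 30.5% of all genes.

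After LPS, 6 of the 9 genes were lower in KO than in WT cells and 0 were higher, where 39.5% of all genes passed, 20.0% higher and 19.5% lower. Of all genes called 50.6% were higher in KO cells, but 31.6% with array median scaling, under which the median gene differed by -0.11. C3ar1 differed by -0.55 ± 0.11 (KO minus WT, adjusted p = 0.00375), which is 1.46-fold lower. Cfp differed by -0.48 ± 0.07 (adjusted p = 0.000357), which is 1.39-fold lower, and its second probe by -0.49. The difference was -0.33 ± 0.08 for C4b (adjusted p = 0.00633) and -0.30 ± 0.08 for C1qa (adjusted p = 0.0133). It was -0.21 ± 0.07 for both C1qb and Cfb (adjusted p = 0.0298 and 0.0317). In each of the 6 the KO arrays lay below the WT arrays without overlap, as 58.4% of all genes did not overlap in this comparison.

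These groups never shared a slide. With the slide as a term, which rests on KO PBS replicate 3, 0 of the 9 genes passed in limma (776 of all genes did), and the standard errors grew. The Cfp difference was then -0.30 ± 0.10 (adjusted p = 0.0993) and that of C3ar1 -0.25 ± 0.18 (adjusted p = 0.457). C4b stood at -0.11, C1qa at -0.06, C1qb at 0.01 and Cfb at 0.01. C1qb also lost its call without WT LPS replicate 1 or 3 or any 1 KO LPS array, with adjusted p from 0.0557 to 0.0986, and with quantile normalization or normexp. Cfb lost it without WT LPS replicate 1 or 2 or KO LPS replicate 1 or 3, with adjusted p from 0.0666 to 0.132, and with quantile normalization, normexp or no filter on dim probes. The second probe of Cfb, at -0.20, did not pass (adjusted p = 0.081). C1qc, C3 and C5ar1 did not pass after LPS, with differences of -0.06 ± 0.05, -0.04 ± 0.05 and 0.14 ± 0.20.

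**Figure D3:**
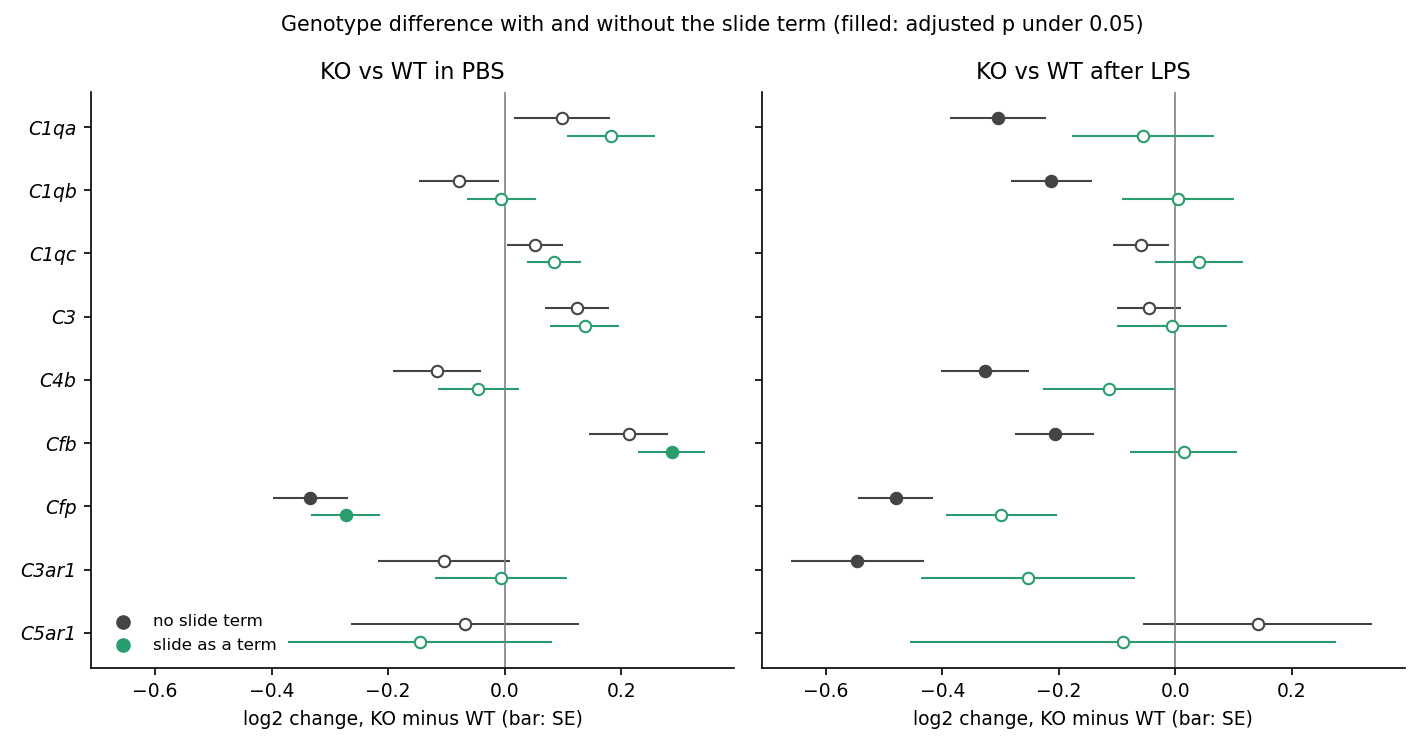
Difference between KO and WT cells (x axis, log2, KO minus WT, bars give the standard error) for each complement gene in PBS (left) and after LPS (right), without a slide term (grey) and with one (green); filled points passed an adjusted p of 0.05. Cfp is below 0 in both panels and fits, and the 6 filled grey points after LPS have no filled green partner.

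Whether LPS acted differently in KO and WT cells was tested by the interaction, the KO change less the WT change. Cfb was the 1 of 9 genes to pass, where 4.31% of all genes did, 0.926% higher and 3.39% lower. Its LPS change was smaller in KO cells, with an interaction of -0.42 ± 0.10 (adjusted p = 0.0301). With the slide as a term it was -0.27 ± 0.09 and did not pass (adjusted p = 0.178), and the second Cfb probe gave -0.46 (adjusted p = 0.0588). The call was also lost without replicate 1 or 2 of WT PBS, WT LPS or KO PBS and without replicate 1 or 3 of KO LPS, with adjusted p from 0.0651 to 0.0902. The KO and WT values in PBS and after LPS come from the same arrays as this difference. C3ar1 at -0.44 ± 0.16 (adjusted p = 0.155) and C1qa at -0.40 ± 0.12 (adjusted p = 0.0814) did not pass. Without KO PBS replicate 3, the PBS array on slide 2, both did, at -0.54 (adjusted p = 0.0314) and -0.49 (adjusted p = 0.00809). In that fit 2797 of the 13283 genes passed for the interaction, against 573 in the main fit. The KO PBS and KO LPS arrays then lay on different slides. C1qa also passed without WT PBS replicate 3, at -0.46 (adjusted p = 0.0348), where 960 of all genes passed. The other 6 genes lay between -0.21 for C4b and 0.21 for C5ar1.

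The rest of the pathway was read from a list of 48 other complement genes, of which 22 were tested. All 8 listed receptors were tested but 1 of 8 lectin pathway genes (Fcna), 1 of 6 terminal components (C7), 3 of 10 fluid-phase regulators and 3 of 7 membrane regulators. LPS raised 4 and lowered 8 of the 22 in WT cells and raised 5 and lowered 8 in KO cells, where 64.7% and 67.0% of all genes passed. The medians were -0.04 and -0.08, against 0.03 and 0.04 for all genes. Hc, described below, is among those raised in each genotype but passed the filter on dim probes only through KO LPS. The KO count was 2 higher and 8 lower when the slide was a term, and C1rl, C7 and C5ar2 lost their calls. C7, a terminal component, then stood at -0.07, against 0.62 without that term, and its call was lost under 15 of 23 alternatives. All 8 receptors passed in each genotype, 2 higher and 6 lower, where 33.7% of all genes were higher and 31.0% lower in WT and 35.1% and 32.0% in KO cells. Itgax, the alpha chain of complement receptor 4, went from 0.09, 0.05 and 0.09 in WT PBS to -3.07, -2.99 and -2.52 in WT LPS, and from 0.79, 1.08 and 0.58 to -1.97, -2.03 and -2.06 in KO cells. These falls were 7.67-fold in WT (adjusted p = 7.47e-09) and 7.15-fold in KO cells (adjusted p = 1.3e-08).

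Itgam, the alpha chain of complement receptor 3, changed by -0.67 ± 0.07 in WT and -0.42 ± 0.07 in KO cells. Vsig4, a macrophage receptor for C3 fragments, changed by -0.64 ± 0.12 and -0.91 ± 0.12. Cd93, once named as a C1q receptor, changed by -1.18 ± 0.13 and -0.92 ± 0.13, and all of these passed. C1qbp, whose product binds the globular heads of C1q but lies mainly in mitochondria, rose by 1.19 ± 0.04 and 1.1 ± 0.04. Cd55b, a membrane regulator that breaks up the C3-cleaving enzymes, changed by -0.54 in WT and -0.66 in KO cells, and both passed. Hc, the mouse C5 gene, was well above background on 0 of 6 PBS arrays, on 1 of 3 WT LPS and on 3 of 3 KO LPS arrays. In KO cells it was at least 1.26-fold higher with LPS. For this bound each PBS array was given the dimmest level that still counted as well above background there. Hc passed the filter on dim probes through KO LPS alone, so its calls are no separate support for a rise. Its fitted changes, which are no bounds, were 2.22 in WT and 2.35 in KO cells. The fitted difference between the genotypes after LPS was 0.10 and did not pass.

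**Figure D4:**
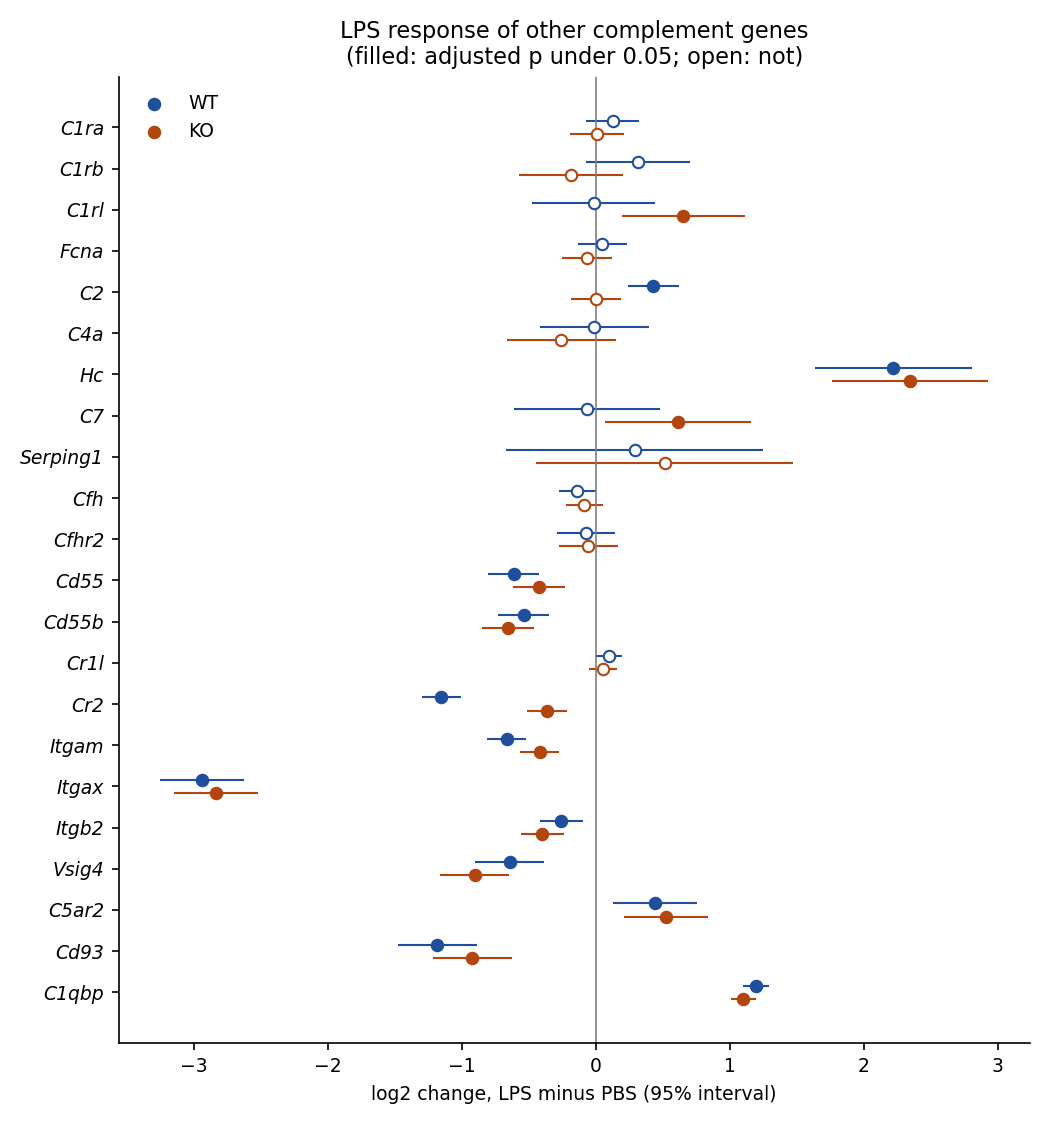
Log2 change with LPS (x axis, LPS minus PBS) of 22 other complement genes in WT (blue) and KO (orange) cells, with its 95% interval; filled points passed an adjusted p of 0.05. Itgax lies near -2.94 and -2.84 at the left and C1qbp at 1.19 and 1.1 to the right; the Hc values rest on PBS arrays that were not well above background.

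Between genotypes, 7 of the 22 differed in PBS, 5 higher and 2 lower in KO cells, where 14.1% of all genes passed. After LPS 9 differed, 6 higher and 3 lower, where 39.5% of all genes passed. That count was 4 higher and 5 lower with array median scaling, and 1 higher (Itgax) and 1 lower (C2) with the slide as a term. C2 differed by -1.12 ± 0.09 in PBS, 2.18-fold lower in KO cells (adjusted p = 2.03e-05), and by -1.55 ± 0.09 after LPS, 2.93-fold lower (adjusted p = 1.18e-06). With the slide as a term these were -1.1 and -1.49, and C2 passed under every alternative run for both comparisons. Itgax was higher in KO cells by 0.74 ± 0.14 in PBS and 0.84 ± 0.14 after LPS, or by 0.86 and 1.19 with the slide term. Of the marker sums above, those of neutrophils were higher and those of dendritic cells lower in KO than in WT cells in PBS. The part of either list in the Itgax and Itgam values was not tested. C1ra, a protease of the C1 complex, was higher by 0.52 in PBS and 0.40 after LPS, the latter 0.16 with the slide term (adjusted p = 0.545). Itgam was higher by 0.53 after LPS and by 0.41 with the slide term, where it did not pass (adjusted p = 0.0602). Cr1l, a membrane regulator, was higher by 0.21 in PBS (adjusted p = 0.0123). That call was lost with array median scaling, in a fit of those groups alone and without WT PBS replicate 1. C1rl, a C1r-like protease gene, read 0.11 to 0.26 on the 8 arrays of slide 1 and 1.22 to 1.28 on the 4 arrays of slide 2, KO PBS replicate 3 among them. Its difference after LPS was 1.07 ± 0.21, and 0.03 with the slide term, and its call for LPS in KO cells, at 0.65, became -0.04.

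Cr2, the receptor for C3 fragments on B cells, was lower in KO cells in PBS, with a difference of -1.02 ± 0.07 (adjusted p = 5.21e-06). It read 2.41, 2.46 and 2.37 in WT PBS and 1.24, 1.27 and 1.26 in WT LPS, and 1.41, 1.29 and 1.47 in KO PBS and 0.96, 0.93 and 1.17 in KO LPS. It changed with LPS by -1.15 ± 0.07 in WT and -0.37 ± 0.07 in KO cells, and was the 1 gene of the 22 with an interaction, at 0.79 ± 0.10 (adjusted p = 0.000414), or 0.71 with the slide term (adjusted p = 0.00509). Of the 8 B-cell markers, whose sums are given above, 6 fell with LPS in WT cells, 7 fell in KO cells, and 4 were lower in KO cells in PBS, where 31.0%, 32.0% and 6.05% of all genes were lower. After LPS 5 were lower in KO cells, where 19.5% of all genes were. For the interaction 0 of the 8 passed, where 4.31% of all genes did. The part of these markers in the Cr2 values was not tested.

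Likeness over the 12 arrays was measured by the root mean square difference of levels after each gene was centred on its own mean. C1qa and C1qb differed by 0.09 on this scale, C1qc and C3 by 0.09 and C1qb and C1qc by 0.09, whereas C4b was nearest to Cfp among the 9, at 0.13. C3ar1 differed from each other member by at least 0.79. Over all genes tested, those most like C3ar1 were Zfp710, Tmem51 and Mblac2, at 0.14 to 0.15. Nearest to Cfb were Rnf31, Npc2 and Rab5a, and to Cfp Syvn1, Pptc7 and Tuft1. C1qa was most like Ddost, Ten1 and Ip6k1, C1qb most like Vrk3, Trp63 and Zdhhc7, and C1qc most like Ciao3, Atp5e and Arhgef7. The genes nearest to C3 were Fnip1, Ndufb2 and Arl3, to C4b Rrbp1, Slc25a28 and Lrrc17, and to C5ar1 Vamp4, Olfr914 and Socs6. All arrays share the scaling but were split between slides, and this measure takes no account of the slide. A small difference here is thus only a description of these 12 arrays.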

How the data were processed

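Groups and replicate numbers came from the sample titles. The files hold, per the file headers, spot intensity from Agilent Feature Extraction (11.5.1.1, per the submitters' processing notes); the authors' deposited intensity values are processed signals not scaled between arrays. The log2 processed signal was reduced by each array's 75th percentile over 59305 non-control spots, and unmarked spots of a probe were averaged. Of 56605 probes, 32994 matched a RefSeq transcript (assembly GRCm38.p6; the headers name an older build, so its table served for names, neighbours and promoter windows only). A probe was kept where some group had it well above background on each of its 3 arrays (28827 probes), and the brightest kept probe stood for its gene.

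A mean per group was fitted over 12 arrays in limma 3.58.1 (R 4.3.3) with trended empirical Bayes moderation, two-sided, with Benjamini-Hochberg adjustment over 13283 genes and a threshold of 0.05. The steps were tested on simulated data, where they recovered 16.4% to 19.6% of true 1.2-fold changes and 69.3% to 73.8% of 1.5-fold changes. A gene that did not pass may thus still have changed by such amounts. The members and lists were chosen with earlier results of these data known. Named besides the 9 genes were up to 5 called list genes per comparison with the smallest p, C2, C4a, C5ar2 and the 3 genes most like each member. Residuals of equal replicate numbers correlated at 0.105, 0.371 and 0.481 for LPS in WT, over 0.1 in every pair. Replicate 1 there correlated more closely with an array of another number, so the data alone did not pair all of these arrays. In the other comparisons at least 1 pair was under 0.1, although for LPS in KO each array correlated most closely with its own number. Alternatives were scalings, background correction, filters, the probe rule, the slide, the replicate block, variance moderation and leaving out each array. The planned normexp correction used the median signal, as the files hold no mean signal; it, the fit of slide 2 alone and the second probes were added after the data were seen.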

Additional observations from a re-analysis of the deposited data

Results flagged for a closer look

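The LPS response of Cfb differed between the genotypes by -0.42 ± 0.10 (KO less WT, limma, n = 3 per group, adjusted p = 0.0301), with a rise of 0.54 in WT cells on 3 of 3 arrays and 0.12 in KO cells. With the slide as a term the difference was -0.27 and did not pass (adjusted p = 0.178), nor did the second Cfb probe, at -0.46 (adjusted p = 0.0588). That of Cr2, which encodes the receptor for C3 fragments on B cells, differed by 0.79 ± 0.10 (limma, adjusted p = 0.000414). Cr2 fell by 1.15 in WT and 0.37 in KO cells, and the difference was 0.71 with the slide as a term (adjusted p = 0.00509). Both came from a test of the difference between the responses.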

How the results depend on the processing

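Of 1073 values of the 9 complement genes under the alternatives, 1013 kept their direction where called and their side of the threshold, 34 lost the call, 24 gained one and 2 reversed: C1qb at 0.00519 and Cfb at 0.0146 for KO against WT after LPS, both in the fit with a slide term. The cause was not tested. The count of called members for LPS in WT was 3, and 6 with quantile normalization; leaving out 1 array gave 3 to 5, with 5 without WT LPS replicate 3. For KO against WT in PBS it was 1, and 2 with normexp, the mean of all probes, a slide term, slide 1 only or the replicate block, which each added Cfb; leaving out 1 array gave 1 to 2, with C5ar1 added without WT PBS replicate 3 and Cfb without KO PBS replicate 3. After LPS it was 6, and 0 with a slide term. For the interaction it was 1. It was 0 with quantile normalization, array median scaling, no filter on dim probes, a slide term or no variance trend. The adjusted p of Cfb ran from 0.0543 to 0.178 in these limma fits. Leaving out 1 array gave 0 to 3. It was 2 without WT PBS replicate 3, where 960 of 13283 genes passed for the interaction. It was 3 without KO PBS replicate 3, where 2797 of all genes passed, against 573 in the main fit. Of the 22 other complement genes, 2 in place of 9 passed after LPS with a slide term (C2 and Itgax), 2 in place of 1 passed for the interaction with the replicate block, and leaving out 1 array gave 4 to 9 in PBS, lowest without WT PBS replicate 1, and 1 to 5 for the interaction, highest without KO PBS replicate 3. For LPS in KO the replicate block made the count of called members 6 in place of 5, with C4b at -0.13 (adjusted p = 0.0468). The block took the called members in PBS from 1 to 2, and the other complement genes of the interaction from 1 to 2. It changed no other count of called genes by more than 1.5 times. Array median scaling changed the split of all called genes from 57.1% to 35.9% higher in KO cells in PBS and from 50.6% to 31.6% after LPS. Slide 1 alone gave values for LPS in WT and for PBS, slide 2 alone for LPS in KO, and a fit of the compared groups alone for all comparisons but the interaction. The number of arrays limits the precision.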
